A study of Rattus norvegicus with 12 samples.

Results

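Exonic circular RNAs (circRNAs) of 2 to 4 exons were the most numerous class of circle in 12 rat liver libraries. They were taken as the entries of the deposited table that are typed as exonic circRNA and list 2, 3 or 4 exons, and entries of the same back-splice junction were summed. This gave 11823 junctions, 56.1% of the 21068 in the table, from 4829 host genes. All rats were wild-type Wistar rats made diabetic in the same way, with 4 weeks of a diet that supplied 60% of its calories as fat and then streptozotocin, a toxin of pancreatic beta cells, injected at 35 mg/kg after 16 h without food. Animals whose fasting glucose was above 16.7 mmol/L on day 3 entered the study, so no group is free of diabetes induction. The groups were relapse (2 libraries, diabetes that came back after sleeve gastrectomy), sleeve gastrectomy (5 libraries, liver taken 3 months after surgery that removes most of the stomach) and sham operation (5 libraries). When the relapse and sham livers were taken is not given in the sources used here. The labels do not say that each library came from its own animal, so a p-value measures the spread between these libraries, which may be technical. The libraries were made from liver RNA depleted of ribosomal RNA and treated with RNase R, an exonuclease that degrades linear RNA.

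A circRNA forms when the spliceosome joins the end of an exon to the start of the same exon or of an upstream one, and the closed loop has no free ends for exonucleases to attack. A read across that back-splice junction identifies the circle. Circles of a few exons usually keep their exons and lose the introns between them, and they are mostly found in the cytoplasm. In a bulk tissue, fewer cells of a type and less RNA per cell cannot be told apart, and a count of back-splice reads does not show how much linear RNA the host gene made.

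The libraries held 18176 to 37229 back-splice reads, of which 11245 to 23153 crossed a junction of a 2- to 4-exon circle. Levels are given in RPM, the reads of a circle scaled to 1e6 back-splice reads of its library. On this scale a circle without reads can still lie at up to 80.6 RPM in the deepest library and 165 RPM in the shallowest. Of the hepatocyte marker genes, 6 of 8 gave circles (albumin, transferrin, Cps1, Cyp2e1, Fgb and Serpina1) while Apoa1 and Ttr were at 0. Their summed level over circles of all kinds was 7362 to 8515 RPM in relapse, 6928 to 12145 after sleeve gastrectomy and 8925 to 14580 in sham. Of the 2919 reads behind this sum, 1280 were those of 1 circle, Cps1 circRNA2271, so it is not an even measure of the 6 genes. Other cells of the liver gave few reads. Macrophage markers (3 of 8 with reads, Cd68, Clec4f, Cd163, Marco and Vsig4 at 0) summed to 108 to 242, 34.2 to 835 and 52.1 to 511 RPM in relapse, sleeve gastrectomy and sham libraries. In the same order, endothelial markers (5 of 8, Lyve1, Pecam1 and Cdh5 at 0) summed to 188 to 541, 49.1 to 377 and 0 to 331 RPM, stellate cell markers (3 of 9) to 80.6 to 217, 0 to 344 and 0 to 232 RPM, and leukocyte markers (2 of 8) to 108 to 188, 49.1 to 378 and 0 to 651 RPM. Erythroid markers gave 3 reads in all, and cholangiocyte and pancreas markers none of either list (0 of 7 genes each).

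Circles of 2 to 4 exons held 176351 back-splice reads, 62.0% of all. The table names hosts either by gene symbol or by Ensembl identifier, and the share was 71.5 ± 1.01% of the reads in symbol entries and 38.0 ± 2.02% of those in identifier entries (SD, n = 12 libraries). Over both kinds of entry, it was 62.3% and 62.2% in the relapse libraries, 62.6%, 60.6%, 63.7%, 60.4% and 61.2% after sleeve gastrectomy, and 63.0%, 61.9%, 62.7%, 61.1% and 62.6% in sham. In the shallowest library the 95% exact binomial (Clopper-Pearson) interval ran from 61.2% to 62.6%, and it covers counting error only. The groups overlapped, with means of 62.3 ± 0.0938% in relapse (SD, n = 2), 61.7 ± 1.44% after sleeve gastrectomy and 62.3 ± 0.750% in sham (SD, n = 5 each). In exact two-sided permutation tests, sleeve gastrectomy against sham gave p = 0.460, relapse against sleeve gastrectomy p = 0.667 and relapse against sham p = 1. By comparison, circles of 5 or more exons held 13.6% of the reads, intergenic circles 10.3%, single-exon circles 8.04% and intronic circles 6.10%.

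**Figure D1:**
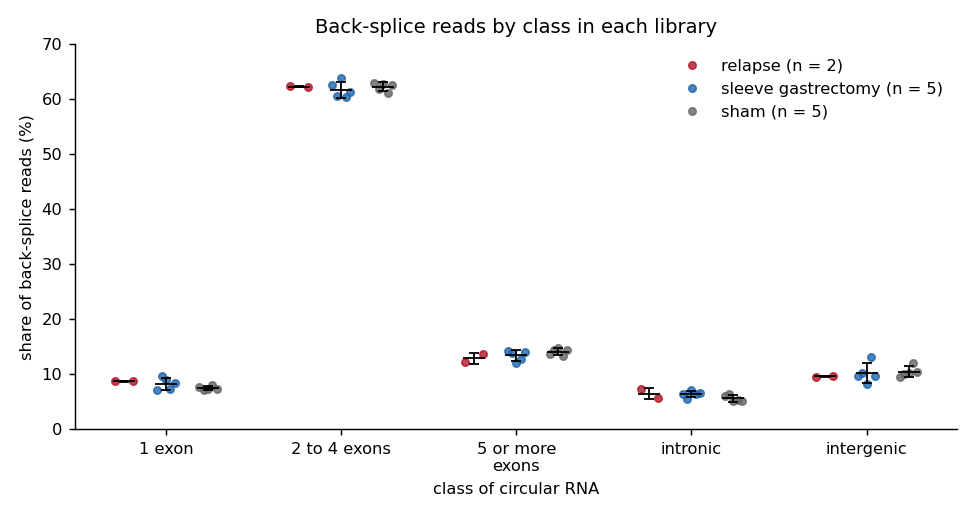
Share of back-splice reads (%, vertical axis) by class of circRNA in each of the 12 libraries (points; bars are mean ± SD of a group). Circles of 2 to 4 exons took 60.4% to 63.7% of the reads in every library, and no other class exceeded 14.7%.

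A library detected 2105 to 3334 of the 11823 circles. The means were 2697 ± 837 in relapse (SD, n = 2), 2759 ± 473 after sleeve gastrectomy and 2632 ± 397 in sham (SD, n = 5 each), and exact two-sided permutation tests gave p = 0.714 (sleeve gastrectomy against sham), 0.905 (relapse against sleeve gastrectomy) and 1 (relapse against sham). The number moved in part with depth: relapse 1 and 2, with 18473 and 37229 back-splice reads, detected 2105 and 3289 circles. At near-equal depth, however, sleeve gastrectomy 3 detected 2522 circles from 18541 reads. With every library thinned to 18176 reads, the means were 2353 ± 366 in relapse, 2509 ± 265 after sleeve gastrectomy and 2469 ± 181 in sham. Thinned libraries still ran from 2079 to 2776 circles, with 2094 in relapse 1 and 2611 in relapse 2.

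Circles of 2 exons were the most numerous, with 4755 junctions and 42.1% of the reads of the class, followed by 4144 circles of 3 exons with 35.6% and 2924 circles of 4 exons with 22.3%. The genomic span grew with the number of exons, from a median of 1951 bases for 2 exons to 4694.5 for 3 and 7652 for 4. Spans over the whole class ran from 169 to 396017 bases with a median of 4074, against a median of 249 bases for single-exon circles and 13786 for circles of 5 or more exons. The split by exon number was similar across groups. Circles of 2 exons took 44.1 ± 1.70% of the reads of the class in relapse (SD, n = 2), 41.8 ± 0.636% after sleeve gastrectomy and 41.6 ± 1.30% in sham (SD, n = 5 each). Both relapse libraries, at 45.3% and 42.9%, lay above the 5 sleeve gastrectomy libraries, which reached 42.8%. That difference had an exact two-sided permutation p of 0.0476, the smallest that 2 against 5 libraries allow, and 0.214 after adjustment over 9 tests. Circles of 4 exons took 20.8 ± 1.40% in relapse (n = 2), 22.2 ± 1.36% after sleeve gastrectomy and 23.1 ± 0.981% in sham (SD, n = 5 each), and relapse against sham again gave an exact permutation p of 0.0476 and an adjusted p of 0.214.

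Within a library, a detected circle of 2 to 4 exons carried fewer reads than a detected single-exon circle and more than a circle of 5 or more exons. The means were 5.40 ± 0.661 reads per detected junction for 2 to 4 exons, 9.58 ± 1.46 for 1 exon and 3.98 ± 0.442 for 5 or more (SD, n = 12 libraries). The 2- to 4-exon circles were lower than single-exon circles in 12 of 12 libraries and higher than longer circles in 12 of 12, each with a permutation p of 0.000488 from flipping the signs of paired differences, the smallest that 12 libraries allow. The comparison with single-exon circles depended on the measure: the share of detected junctions with only 1 read was lower for 2 to 4 exons, at 31.0 ± 3.37%, than for 1 exon, at 34.6 ± 5.01% (SD, n = 12, permutation p = 0.00244). Detected circles of 2 to 4 exons were also more often seen in another library, in 80.3 ± 1.98% of cases against 77.3 ± 4.12% for single-exon circles and 67.7 ± 2.40% for circles of 5 or more exons (SD, n = 12; permutation p = 0.00830 and 0.000488). Reads per detected junction also fell inside the class as exons were added, to 5.61 ± 0.775 for 2 exons, 5.33 ± 0.623 for 3 and 5.15 ± 0.591 for 4 (SD, n = 12). The step between 3 and 2 exons was −0.279 reads (permutation p = 0.00195, adjusted 0.00260 over 4 steps; lower in 10 of 12 libraries), and that between 4 and 3 was −0.179 (p = 0.0420, adjusted 0.0420; lower in 9 of 12). Without the 10 most abundant junctions of the table, an alternative chosen after the data were seen, the step between 3 and 2 exons was 0.0775 (permutation p = 0.127) and that between 4 and 3 exons was −0.189 (p = 0.0376, adjusted 0.0501; lower in 9 of 12), so the fall between 2 and 3 exons was not seen there. The step between 2 exons and 1 exon was −3.97 reads with all junctions and −1.25 without those 10, lower in 12 of 12 libraries both times (permutation p = 0.000488).

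**Figure D2:**
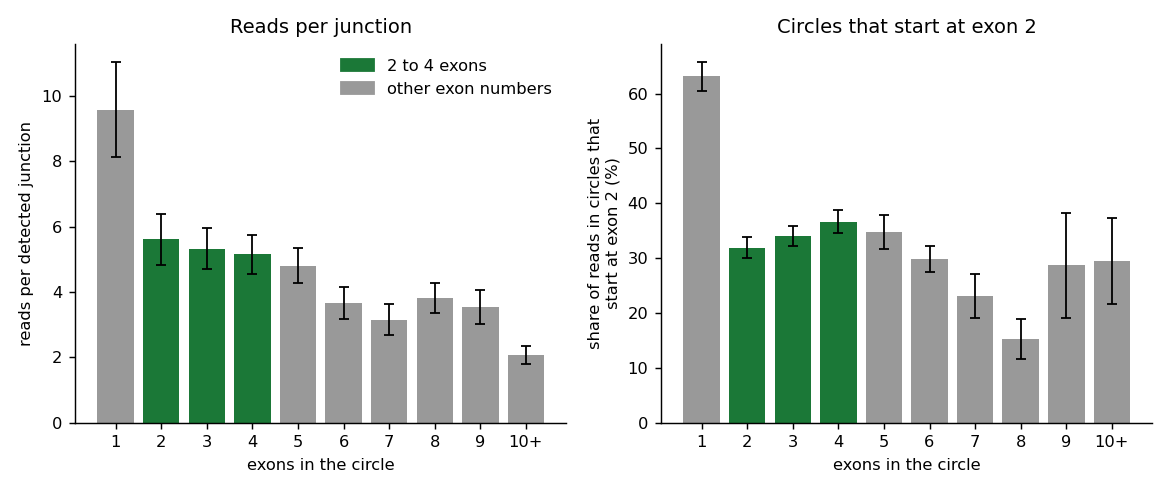
Left, mean back-splice reads per detected junction by number of exons in the circle. Right, share of reads in circles that start at exon 2 of the listed transcript (%). Bars are means and error bars SDs over 12 libraries; green marks 2 to 4 exons, which lie at 5.15 to 5.61 reads per junction between 9.58 for 1 exon and 4.80 for 5 exons.

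Most circles began inside the gene and not at its first exon, which has no upstream splice acceptor. Exon numbers were listed for 10896 circles, all of them runs of consecutive exons. These numbers are those of the listed transcript, and a count of back-splice reads does not show which exons lie between the ends. Only 46 of these (0.422%) began at exon 1 of the listed transcript, while 2278 (20.9%) began at exon 2 and 5293 (48.6%) at exon 6 or later. Reads were more concentrated on exon 2 than junctions were: circles from exon 2 held 33.7% of the reads, and those from exon 6 or later 34.2%. The share of reads from exon 2 was 32.9 ± 1.06% in relapse (SD, n = 2), 34.1 ± 0.844% after sleeve gastrectomy and 33.5 ± 1.06% in sham (SD, n = 5 each), with an exact permutation p of 0.190 or more in each comparison. The exon 2 share of reads was lower than in single-exon circles in 12 of 12 libraries, at 33.7 ± 0.989% for 2 to 4 exons against 63.2 ± 2.60% for 1 exon (SD, n = 12, permutation p = 0.000488). Set against circles of 5 or more exons it was higher in 10 of 12 libraries, at 33.7 ± 0.989% against 30.8 ± 2.39% (permutation p = 0.00342). Counted as detected junctions, the order was the other way, at 24.8 ± 0.793% against 25.7 ± 1.42%. Circles of 2 to 4 exons were then higher in 4 of 12 libraries (permutation p = 0.0361). By exon number, the share of reads was 31.9 ± 1.88% for 2 exons, 34.0 ± 1.85% for 3, 36.6 ± 2.10% for 4 and 34.8 ± 3.11% for 5 (SD, n = 12). Flanking introns were listed for 1222 circles, all from entries named by Ensembl identifier, while the exon numbers come from symbol entries. The intron lengths therefore describe identifier entries only. The upstream intron had a median of 6469.5 bases and the downstream intron of 5647.5, and the upstream one was the longer in 685 circles (56.1%).

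**Figure D3:**
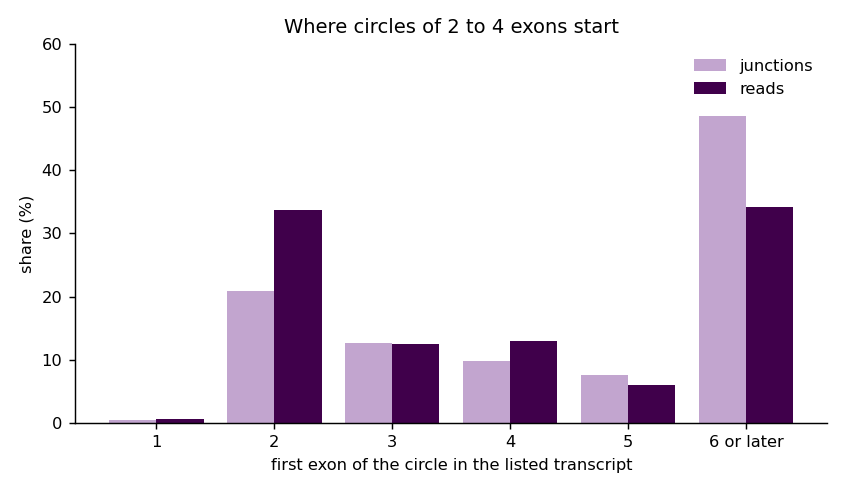
First exon of the circle in its listed transcript (horizontal axis) against the share of circles (light) and of reads (dark) of the 10896 circles of 2 to 4 exons with exon numbers (%). Exon 2 holds 20.9% of the circles and 33.7% of the reads, and exon 1 under 1% of both.

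Most circles were rare and a few held most reads. In all, 6455 circles (54.6%) were read in 1 library only and held 6.37% of the reads of the class, whereas 391 (3.31%) were read in all 12 libraries and held 51.2%. The 100 most read circles held 33.3%. Among host genes, 2215 (45.9%) gave 1 circle of 2 to 4 exons, 603 gave 5 or more and 87 gave 10 or more. Circles of a gene often shared a splice site: 3134 (26.5%) shared their upstream end with another circle of the class, 2869 (24.3%) shared their downstream end, and 2037 (17.2%) shared the upstream end with a circle of 5 or more exons. Even so, 1 circle tended to dominate. In the 96 hosts with 5 or more circles and at least 200 reads, the top circle held a median of 73.1% of the reads of its gene, and over 50% in 80 of them. The share was highest in Optn, which encodes the autophagy receptor optineurin, with 99.5%.

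The hosts with most circles differed in that respect, and Cps1 and Pik3c2g tied at 19 circles for the fifth place. Dpyd, which encodes the first enzyme of pyrimidine breakdown, gave 23 circles with 1377 ± 808 RPM in sum in relapse (SD, n = 2), 1902 ± 1297 after sleeve gastrectomy and 1880.1 ± 1167 in sham (SD, n = 5 each), and its top circle held 40.5% of the reads. Cps1, which encodes the mitochondrial enzyme that opens the urea cycle, gave 19 circles, of which circRNA2271 alone held 96.6%, while the top circle of Pik3c2g, circRNA1579, held 75.4%. Usp32, a deubiquitinase gene, gave 20 circles with 1794 ± 296 RPM in relapse, 1079 ± 485 after sleeve gastrectomy and 1390.2 ± 311 in sham. Tf, the transferrin gene, gave 20 circles with 512 ± 40.9, 519 ± 317 and 791 ± 224 RPM, and Utrn, the utrophin gene, gave 20 circles with 337 ± 59.0, 369 ± 257 and 299.5 ± 279 RPM in the same groups (SD, n = 2, 5 and 5). Of the 20 circles each of Tf and Utrn, 15 were read in 1 library only.

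The most abundant circle of the class was circRNA278 of Spidr, exons 2 and 3 of a gene for a scaffold of homologous recombination repair (chromosome 11, 89175426 to 89180448, minus strand; coordinates are those of the Rnor_6.0 build, counted from 1). It had 21869.8 and 25357 RPM in relapse, 21218, 19949, 17313, 20347 and 25578 after sleeve gastrectomy, and 21282, 17166, 16708, 16347 and 17946 in sham. Both relapse libraries lay above the 5 sham libraries, while relapse and sleeve gastrectomy overlapped. The log2 fold change was 0.42 (SE 0.20, edgeR adjusted p = 0.839) for relapse against sham and 0.24 (SE 0.16) for sleeve gastrectomy against sham, and neither passed.

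Genes of drug and steroid metabolism followed. Ugt2b35 encodes a glucuronosyltransferase, and its circle of exons 4 and 5, circRNA9738 (chromosome 14, 22576810 to 22578155, plus strand), is also written as circRNA2473. Summed, it had 9960.5 and 10449 RPM in relapse, 7419, 12431, 9223, 5701 and 13114 after sleeve gastrectomy, and 5097, 16010.1, 7964, 11132 and 13018 in sham, and the groups overlapped. CircRNA2223 of the sulfotransferase gene Sult1c3, exons 2 to 4 (chromosome 9, 4942768 to 4945352, minus strand), had 8012 and 8676 RPM in relapse, 5482, 10957, 7713, 9109 and 3766 after sleeve gastrectomy, and 6653, 2531, 3852, 2156 and 7718 in sham. Both relapse libraries lay above all sham libraries, and sleeve gastrectomy overlapped with both groups (relapse against sham log2 fold change 0.87 (SE 0.50, edgeR adjusted p = 0.896)). Ugt2b35, Sult1c3 and the Cyp2c genes belong to families of near-identical copies, so reads could be split between copies and the levels of these circles are uncertain.

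CircRNA2052 of Cyp2c7, exons 2 to 5 of a cytochrome P450 gene (chromosome 1, 148097769 to 148107916, minus strand), was the 1 circle of the 15 most abundant in which relapse overlapped with neither of the other groups. It had 5305 and 5104 RPM in relapse, 10302, 6535, 10032, 9829.6 and 8697 after sleeve gastrectomy, and 8341, 10563, 7859.7, 9477 and 8741 in sham. Both relapse libraries were below each of the other 10. How many of all tested junctions separate the groups in this way was not counted, for this or any other circle named. With 2 libraries against 5, an exact permutation test can give no p under 0.0476. The log2 fold change was −0.81 (SE 0.25, edgeR adjusted p = 0.747) for relapse against sleeve gastrectomy and −0.77 (SE 0.25, edgeR adjusted p = 0.700) for relapse against sham, so neither passed the threshold of 0.05. Sleeve gastrectomy and sham differed by 0.04 (SE 0.18).

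Transport and receptor genes gave the next circles. Slc16a10, which encodes a transporter of aromatic amino acids, gave circRNA997 of exons 2 and 3 (chromosome 20, 45189473 to 45193661, minus strand) with 2598 and 3519 RPM in relapse, 5671, 3145, 5339.5, 6324 and 5307 after sleeve gastrectomy, and 7613, 10563, 8745, 4463 and 2929 in sham. The groups overlapped, and sham libraries spread the most (relapse against sham log2 fold change −1.14 (SE 0.43, edgeR adjusted p = 0.706)). Lrp6, the gene of a Wnt co-receptor, gave circRNA1571 of exons 12 and 13 (chromosome 4, 168219621 to 168221653, minus strand) with 4493 and 4566 RPM in relapse, 3449.7, 2752, 4261, 4063 and 3219 after sleeve gastrectomy, and 3343, 5282, 6402, 6067 and 4742 in sham. Relapse lay above the 5 sleeve gastrectomy libraries and inside the range of sham, with a log2 fold change against sleeve gastrectomy of 0.35 (SE 0.28, edgeR adjusted p = 1).

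The urea cycle gene Cps1 gave circRNA2271, exons 12 to 14 (chromosome 9, 74164335 to 74167718, plus strand), with 2003 and 4351 RPM in relapse, 4442, 1278, 5124, 5374 and 3869 after sleeve gastrectomy, and 6090.1, 7097, 5517, 4312 and 3905 in sham. Sleeve gastrectomy 2 was the lowest library and the groups overlapped. The others of the 15 most abundant circles also overlapped between groups. Optn circRNA538, exons 2 and 3, had the lowest coefficient of variation of the 78 circles at 1000 RPM or more, with 6012 ± 463 RPM in relapse (SD, n = 2), 5713 ± 728 after sleeve gastrectomy and 5512 ± 1069 in sham (SD, n = 5 each). Its coefficient of variation over 12 libraries was 14.3%, where counting error alone would give 8.84%. Relative to counting error it was not the lowest: its ratio was 1.62, against 0.940 for circRNA904 of Rnf14 and 0.961 for circRNA1881 of Ash1l, both named after their values were seen. The median coefficient of variation over the 78 circles was 32.8%, with 17.1% from counting, and the highest was 89.2%.

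The remaining abundant circles were those of Gdi2, a recycling factor of Rab GTPases (circRNA527, 3749 ± 1063 RPM, SD, n = 12), Gtf2i, a transcription factor gene (circRNA159, 3038 ± 931), Smoc1, which encodes a secreted matricellular protein (circRNA1196, 2966 ± 636), and 4 whose host is written as an Ensembl identifier. These were circRNA2745 of Ralgps2, an exchange factor of Ral GTPases (5858 ± 1899), circRNA2550 of Atxn2, an RNA-binding protein (3987 ± 981), circRNA2484 of Prelid2 (2973 ± 1205) and circRNA2847 of Uvrag, a factor of autophagy and endosome traffic (2963 ± 1054). Counts of 0 were frequent in entries of that kind. Of 27 circles written only that way at 500 RPM or more, 13 had 0 reads in some library, against 10 of 167 written only by symbol. Uvrag circRNA2847 had 0 reads in sleeve gastrectomy 3 and 2552 to 3834 RPM in the other 4 sleeve gastrectomy libraries. With symbol entries alone, edgeR called 0 of 819 tested circles in each comparison.

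**Figure D4:**
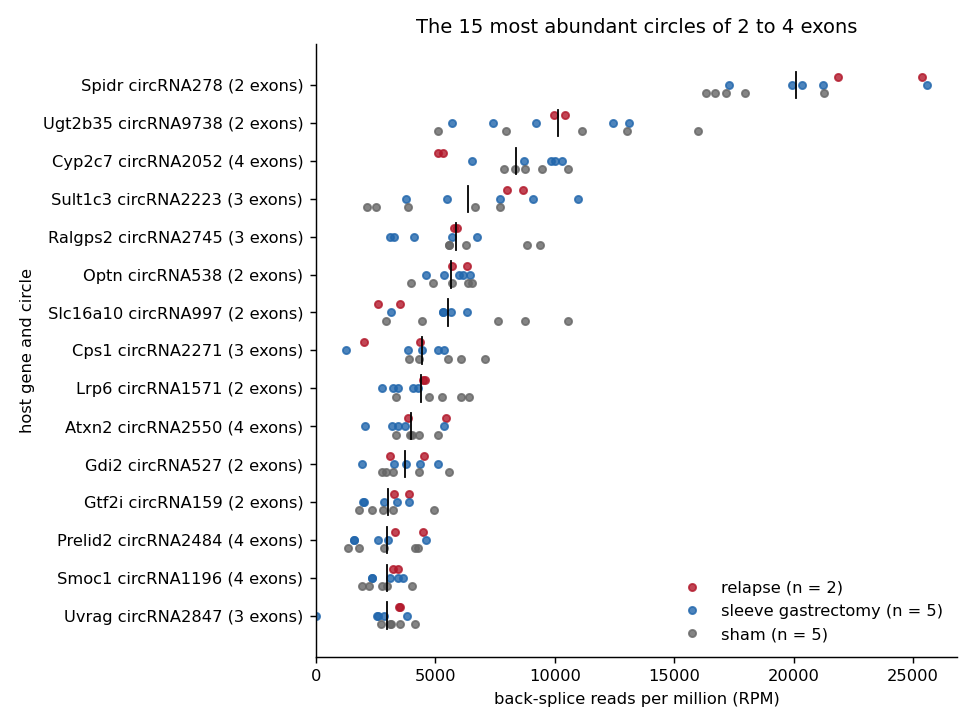
Level of back-splice reads (RPM, horizontal axis) of the 15 most abundant circles of 2 to 4 exons in each library; black ticks are means over 12 libraries. Groups overlap in most rows, and both relapse points of Cyp2c7 circRNA2052 lie below all other libraries.

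The comparison of sleeve gastrectomy with sham addresses how liver circles differ after the operation in diabetic rats. A filter on low counts kept 986 of the 11823 circles (8.34%), which held 71.6% of the reads of the class, and edgeR was fitted to all 1519 junctions that passed. It called 0 of the 986 circles at an adjusted p under 0.05, and 0 (0%) of all 1519 junctions. At an unadjusted p under 0.05 there were 39 circles (18 higher, 21 lower), where 49.3 would arise by chance, beside 59 of all tested junctions (3.88%). DESeq2 and limma-voom also called 0, with 38 and 60 circles at an unadjusted p under 0.05. The median log2 fold change of the circles was −0.01, and −0.01 over all tested junctions. In simulated data of this design, the test recovered 0%, 26% and 76% of junctions changed 2-, 4- and 8-fold. Here and in the comparisons below, the simulation gave every junction the same spread between libraries (a common dispersion of 0.425). The recoveries therefore do not describe circles that vary less, such as Spidr circRNA278 with an SE of 0.16.

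The smallest p belonged to circRNA1643 of Upp2, exons 3 to 6 of a gene for a liver uridine phosphorylase (chromosome 3, 44823074 to 44833052, plus strand). It had 1039.7, 688, 647, 1278 and 1096 RPM after sleeve gastrectomy and 2151, 2476, 3696, 1404 and 1859.7 in sham. The groups did not overlap, with sleeve gastrectomy lower, and the relapse libraries had 866 and 1397 RPM. The log2 fold change was −1.23 (SE 0.31, edgeR adjusted p = 0.365).

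CircRNA4452 of Nrdc, exons 19 to 21 of the gene of the metalloendopeptidase nardilysin (chromosome 5, 128678700 to 128681202, plus strand), ran the other way. It had 2363, 2997, 2535, 2785 and 2259.9 RPM after sleeve gastrectomy and 1622, 1485, 1197, 2006 and 1069 in sham. All sleeve gastrectomy libraries were above all sham libraries, and the relapse libraries, at 1191 and 1665 RPM, were within the range of sham. The log2 fold change was 0.82 (SE 0.26, edgeR adjusted p = 0.926). The junction is also written as circRNA2889, and that entry tested alone had a log2 fold change of −6.88, of opposite sign.

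Dennd1b, which encodes an exchange factor of the GTPase Rab35, gave 2 of the 8 circles with the smallest p, and they share an upstream end at base 56114439 of chromosome 13. CircRNA62, exons 6 to 9 (to 56129496), had 331, 688, 755, 426 and 137 RPM after sleeve gastrectomy and 695, 990.3, 573, 1655 and 1302 in sham. CircRNA5889 (to 56121638) is written by identifier, the kind of entry in which counts of 0 were frequent. It had 2 reads after sleeve gastrectomy, both in library 3, and 47 in sham, with 0 in sham 3. Both were lower on average and both overlapped between groups, with log2 fold changes of −1.17 (SE 0.40, edgeR adjusted p = 0.926) and −4.17 (SE 1.12, edgeR adjusted p = 0.453). Without sleeve gastrectomy 3, circRNA5889 was at 0 after the operation and its fitted value was −6.30, which, with a group at 0 reads, is no bound on the fold.

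Kinase genes gave circRNA1579 of Pik3c2g, exons 18 and 19 of a class II phosphoinositide 3-kinase (chromosome 4, 173885674 to 173889303, plus strand), and circRNA1957 of Map3k5, exons 4 to 7 of the stress kinase ASK1 (chromosome 1, 15488393 to 15494771, plus strand). Pik3c2g circRNA1579 had 1748, 1327, 2103, 3014 and 2294 RPM after sleeve gastrectomy and 2946, 4346, 4008, 2407 and 4138 in sham (log2 fold change −0.72 (SE 0.25, edgeR adjusted p = 0.926)). Map3k5 circRNA1957 had 1039.7, 540.5, 647, 1016 and 1027 RPM after sleeve gastrectomy and 927, 1816, 3071, 1254 and 1441 in sham (log2 fold change −0.93 (SE 0.33, edgeR adjusted p = 0.926)). Both had lower means after the operation and both overlapped between groups. Without sham 3 the Map3k5 value was −0.61.

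The last of the 8 were 2 further entries written by identifier, with reads in 2 libraries each. CircRNA16525 of ENSRNOG00000009273 (chromosome 5, 77248427 to 77341841, minus strand) had 0 reads after sleeve gastrectomy and 31 in sham, 23 in sham 2 and 8 in sham 5, at least 11.3-fold lower against 3 reads over the group, and at least 3.51-fold without sham 2. CircRNA8183 of Ptms, the parathymosin gene (chromosome 4, 157436085 to 157436371, minus strand), had 26 reads after sleeve gastrectomy, 8 in library 1 and 18 in library 5, and 0 in sham, at least 7.89-fold higher, and at least 3.21-fold without sleeve gastrectomy 5. Neither passed (edgeR adjusted p = 0.926 and 0.996). Each met the count filter only through the 2 libraries with reads, and the other libraries of the same group were also at 0. The bounds therefore describe these reads and are no evidence of a group difference.

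**Figure D5:**
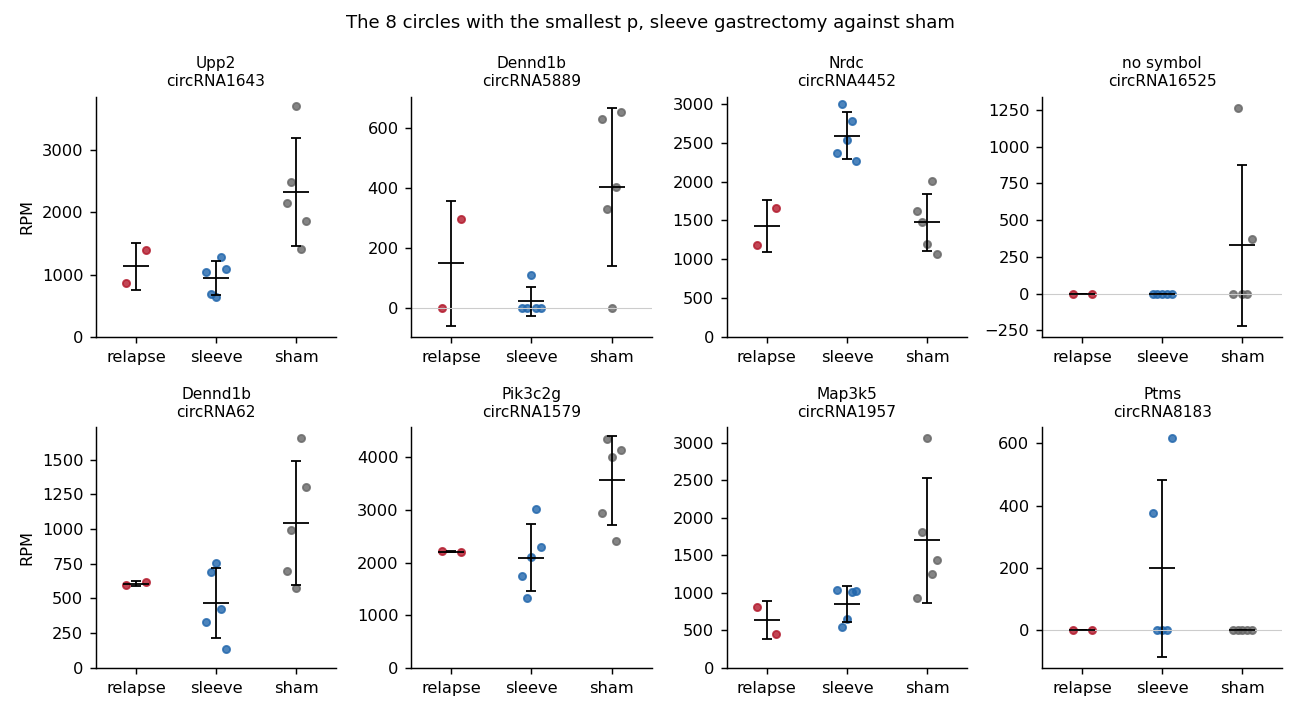
Level of back-splice reads (RPM) of the 8 circles with the smallest p between sleeve gastrectomy and sham, in each library of the 3 groups (points; bars are mean ± SD). Upp2 circRNA1643 and Nrdc circRNA4452 separate the 5 sleeve gastrectomy from the 5 sham libraries, and the other 6 overlap. The circles were picked for their small p, and how many of all tested junctions separate was not counted.

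The comparison of relapse with sleeve gastrectomy addresses the return of diabetes after the same operation. edgeR called 0 of the 986 circles and 0 (0%) of the 1519 junctions, with 47 circles at an unadjusted p under 0.05 (16 higher, 31 lower; 49.3 by chance) beside 73 of all tested junctions (4.81%). DESeq2 and limma-voom called 0, with 48 and 63 at an unadjusted p under 0.05. The median log2 fold change of the circles was −0.04, against −0.07 over all tested junctions, and the simulated recovery was 0%, 5% and 39% at 2-, 4- and 8-fold. Besides Cyp2c7 circRNA2052 and Camta1 circRNA1417, the 8 circles with the smallest p had 0 to 9 reads in each relapse library.

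Rab11a and Dtnbp1 belong to membrane traffic, the first as the GTPase of recycling endosomes and the second as dysbindin, a subunit of a complex for lysosome-related organelles. CircRNA2375 of Rab11a, exons 2 to 4 (chromosome 8, 70203323 to 70206310, minus strand), had 108 and 161 RPM in relapse and 851, 540.5, 324, 589.8 and 993 after sleeve gastrectomy, with 364, 440.1, 364, 201 and 232 in sham. CircRNA3508 of Dtnbp1, exons 2 to 5 (chromosome 17, 20098293 to 20109613, plus strand), had 0 and 107 RPM in relapse and 614, 197, 431, 917 and 479 after sleeve gastrectomy, with 298, 385, 104, 251 and 139 in sham. In both genes relapse and sleeve gastrectomy did not overlap, on 8 and 4 reads in relapse (log2 fold change −2.21 (SE 0.73, edgeR adjusted p = 0.747) and −2.93 (SE 0.96, edgeR adjusted p = 0.747)). For Dtnbp1 it was −2.23 without relapse 1, and −6.66 without relapse 2, a fitted value with relapse at 0 reads that is no bound.

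CircRNA4701 of Pik3c2g, exons 9 to 12 (chromosome 4, 173816405 to 173834461, plus strand), had 0 and 242 RPM in relapse, 614, 639, 593, 459 and 548 after sleeve gastrectomy, and 662, 440.1, 729, 552 and 697 in sham. Both relapse libraries were below the other 10 (log2 fold change −1.91 (SE 0.68, edgeR adjusted p = 0.747) against sleeve gastrectomy and −2.01 (SE 0.68, edgeR adjusted p = 0.706) against sham). Against sleeve gastrectomy it was −1.14 without relapse 1 and −6.71 without relapse 2, and against sham −1.23 and −6.80, where the values without relapse 2 likewise have relapse at 0 reads. The other circle of this gene named above, circRNA1579, was at 2219 and 2203 RPM in relapse, inside the range of sleeve gastrectomy and below all 5 sham libraries (log2 fold change against sham −0.67 (SE 0.35, edgeR adjusted p = 0.842)). CircRNA1417 of Camta1, exons 2 and 3 of a calmodulin-binding transcription activator gene (chromosome 5, 168985431 to 168991261, minus strand), was higher in relapse than after sleeve gastrectomy, with 1137 and 752 RPM against 425, 246, 162, 426 and 205, without overlap (log2 fold change 1.61 (SE 0.55, edgeR adjusted p = 0.747)). Sham, at 430, 715, 573, 251 and 790 RPM, overlapped with relapse (log2 fold change of relapse against sham 0.77 (SE 0.54, edgeR adjusted p = 0.926)).

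Among these 8, circles of 3 genes had 0 reads in both relapse libraries. Each met the count filter only through the other groups and was picked for its small p. A lower value in relapse is therefore partly set by that choice, and the bounds below are a description. Crot, which encodes the peroxisomal carnitine octanoyltransferase, gave circRNA7290 of exons 7 to 9 (chromosome 4, 22102428 to 22104879, plus strand) with 29 reads after sleeve gastrectomy and 26 in sham, at least 4.50-fold and 4.43-fold lower in relapse. Chn2, a GTPase-activating protein gene of Rac, gave circRNA10085 of exons 4 to 6 (chromosome 4, 84371348 to 84376531, plus strand), also written as circRNA7978. Summed, it had 42 reads after sleeve gastrectomy and 19 in sham, at least 6.51-fold and 3.23-fold lower in relapse. The entry circRNA10085 tested alone had an unadjusted edgeR p of 0.0673 for relapse against sleeve gastrectomy, where the sum had 0.00350. Dhtkd1, which encodes an enzyme of lysine degradation, gave circRNA6760 of exons 8 to 10 (chromosome 17, 76333697 to 76337752, plus strand) with 33 reads after sleeve gastrectomy and 21 in sham, at least 5.12-fold and 3.58-fold lower in relapse. Without relapse 2, the deeper library, these bounds were 1.49 and 1.47 for Crot, 2.16 and 1.07 for Chn2, and 1.70 and 1.19 for Dhtkd1. None passed (edgeR adjusted p = 0.747 for each against sleeve gastrectomy, and 0.700 to 0.706 against sham).

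Leaving out a relapse library produced calls. Without relapse 1, edgeR called 1 circle, circRNA15276 of Uxs1, which encodes a UDP-glucuronate decarboxylase, with 0 reads in relapse 2 and 18 in relapse 1 (adjusted p = 0.00375). Without relapse 2 it called 4: circRNA4701 of Pik3c2g, circRNA4742 of Camsap1, circRNA5158 of Slc18b1 and circRNA5428 of Atad1. Each of these 4 had 0 reads in relapse 1 and 9 to 26 in relapse 2. With 1 library left, that library is assumed to vary like the other groups, and Uxs1, Camsap1, Slc18b1 and Atad1 are named after their values were seen.

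The comparison of relapse with sham shares the relapse libraries with the comparison above and the sham libraries with the first one. edgeR called 0 of the 986 circles and 0 (0%) of the 1519 junctions, with 51 circles at an unadjusted p under 0.05 (20 higher, 31 lower; 49.3 by chance) beside 88 of all tested junctions (5.79%). DESeq2 and limma-voom called 0, with 53 and 72 at an unadjusted p under 0.05. The median log2 fold change was −0.02 for the circles and −0.04 for all tested junctions, and the simulated recovery was 0%, 5.5% and 47% at 2-, 4- and 8-fold. Without relapse 1 the count was 1 (Uxs1 circRNA15276), and without relapse 2 it was 3, those named above except Atad1 circRNA5428.

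The smallest p was that of circRNA430 of Acly, exons 24 and 25 of the gene of ATP citrate lyase, the enzyme that supplies cytosolic acetyl-CoA for lipid synthesis (chromosome 10, 88397109 to 88397582, minus strand). It had 1678 and 752 RPM in relapse, 284, 246, 216, 655 and 514 after sleeve gastrectomy, and 364, 165, 468, 150.4 and 232 in sham. Both relapse libraries were above the other 10, with 31 and 28 reads, and relapse 1 was the higher. The log2 fold change was 2.06 (SE 0.58, edgeR adjusted p = 0.579) against sham and 1.53 (SE 0.56, edgeR adjusted p = 0.819) against sleeve gastrectomy, and neither passed.

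CircRNA122 of Ppp2r5a, exons 2 and 3 of the gene of a regulatory subunit of protein phosphatase 2A (chromosome 13, 110049192 to 110052621, minus strand), had 54.1 and 242 RPM in relapse, 662, 540.5, 485, 459 and 479 after sleeve gastrectomy, and 496, 770.2, 781, 802 and 604 in sham. Relapse was below all other libraries, on 10 reads (log2 fold change −1.97 (SE 0.63, edgeR adjusted p = 0.700) against sham). Without relapse 1 it was −1.37, and without relapse 2 −3.69. CircRNA758 of Smim14, exons 2 and 3 of a small membrane protein gene (chromosome 14, 44440262 to 44447074, plus strand), had 812 and 1236 RPM in relapse, 331, 442, 431, 459 and 342 after sleeve gastrectomy, and 529.6, 550.2, 104, 201 and 0 in sham. Here relapse was above all other libraries (log2 fold change 1.87 (SE 0.64, edgeR adjusted p = 0.706) against sham).

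Map3k5 circRNA1957 had 812 and 457 RPM in relapse, below all 5 sham libraries (log2 fold change −1.43 (SE 0.47, edgeR adjusted p = 0.700)). CircRNA2934 of Ugt2b15, another glucuronosyltransferase gene with near-identical copies (chromosome 14, 22378206 to 22418303, plus strand), is written by identifier and is uncertain. It had 15 and 18 reads in relapse, 11 and 15 in sleeve gastrectomy 1 and 4 with 0 in the other 3, and 3 in sham 5 with 0 in the other 4 (relapse against sham log2 fold change 4.29 (SE 1.36, edgeR adjusted p = 0.700)). Without sham 5, with sham at 0 reads, the fitted value was 6.90.

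Host genes were grouped by function in 11 lists, and no circle of any list passed in any comparison (0 of the tested circles in each list). Fatty acid oxidation and ketogenesis had 68 circles of 18 hosts, of which 14 were tested. Their median log2 fold change was −0.05 in the first comparison (sleeve gastrectomy against sham), −0.11 in the second (relapse against sleeve gastrectomy) and −0.12 in the third (relapse against sham). CircRNA1100 of Ppara, a nuclear receptor gene, had 310.3 ± 97.0 RPM in relapse, 405 ± 239 after sleeve gastrectomy and 779 ± 294 in sham. CircRNA2494 of Hadhb, which encodes the thiolase of mitochondrial fatty acid oxidation, had 661 ± 15.5, 354 ± 157 and 663 ± 223 RPM in the same groups (SD, n = 2, 5 and 5).

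Carbohydrate and lipid genes gave few tested circles. Glucose production and glycogen had 33 circles of 13 hosts, 5 of them tested, with medians of 0.17, 0.26 and 0.70 in the same order of comparisons (all further medians are given in this order). Gbe1, the glycogen branching enzyme gene, gave circRNA207 with 649 ± 537 RPM in relapse, 521 ± 184 after sleeve gastrectomy and 368 ± 177 in sham, and Tkfc, a gene of fructose metabolism, gave circRNA2151 with 512 ± 35.4, 435 ± 208 and 218 ± 67.0 RPM (SD, n = 2, 5 and 5). Both relapse libraries of Tkfc circRNA2151, at 487 and 537 RPM, were above the 5 sham libraries, whose highest was 275 RPM. Lipid synthesis and storage had 65 circles and 2 tested ones, Acly circRNA430 among them, with medians of 0.59, −0.31 and 0.28. Cholesterol and bile acids had 46 circles and 3 tested ones from 2 hosts, with medians of −0.29, −0.33 and −0.62. All 3 circles were below 0 in each comparison, but the sign in the third follows from the first 2. CircRNA1582 of Slco1b2, a hepatic uptake transporter gene, had 337 ± 17.2 RPM in relapse, 420.2 ± 161 after sleeve gastrectomy and 535 ± 348 in sham, and circRNA4169 of Soat2, which esterifies cholesterol, had 134 ± 189.9, 325 ± 206 and 459 ± 266 RPM. Insulin signalling had 61 circles and 6 tested ones, with medians of 0.07, −0.10 and 0.39, and both named circles are those of Pik3c2g given above.

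The secretory and nitrogen functions of the hepatocyte gave more circles. Secreted proteins had 156 circles of 25 hosts and 11 tested ones, with medians of −0.07, −0.68 and −0.08. CircRNA733 of the albumin gene had 1079 ± 82.1 RPM in relapse, 1706 ± 627 after sleeve gastrectomy and 1138 ± 575 in sham (SD, n = 2, 5 and 5). Amino acids and urea cycle had 101 circles and 9 tested ones, with medians of −0.38, −0.32 and −0.71. CircRNA1962 of Arg1, which encodes the last enzyme of the urea cycle, was low, with 8 reads in relapse, 18 after sleeve gastrectomy and 4 in sham. Xenobiotic metabolism had 41 circles with 7845 reads and 8 tested ones, with medians of −0.05, 0.14 and −0.13.

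The other lists hold nuclear, ubiquitin and widely studied circRNA host genes. Chromatin and RNA processing had 81 circles and 10 tested ones, with medians of 0.10, 0.18 and 0.27. CircRNA1416 of Rere, a nuclear receptor co-repressor gene, had 1388 ± 355 RPM in relapse, 1512 ± 425 after sleeve gastrectomy and 1403 ± 349 in sham, and circRNA2034 of the chromatin remodeller gene Chd2 had 297 ± 116, 145 ± 105 and 433 ± 235 RPM (SD, n = 2, 5 and 5). Ubiquitin and autophagy had 98 circles and 16 tested ones, with medians of −0.10, −0.13 and −0.26. Circles of the ubiquitin ligase gene Itch (circRNA1731) had 203 ± 173, 115 ± 71.1 and 278 ± 228 RPM in relapse, sleeve gastrectomy and sham. Widely conserved circRNA hosts had 101 circles and 21 tested ones, with medians of −0.09, −0.04 and −0.17. CircRNA1763 of Homer1, a synaptic scaffold gene with exons 2 to 5 in the circle (chromosome 2, 22950024 to 22964734, plus strand), had 2328 and 1209 RPM in relapse, 3686, 1671, 1834, 2294 and 2226 after sleeve gastrectomy, and 2052, 1210.4, 4528, 3761 and 6276 in sham. Sham libraries spread the most, and the groups overlapped. CircRNA597 of Psd3, an exchange factor gene of Arf6, had 876 ± 243, 922 ± 376 and 553 ± 278 RPM in the same groups (SD, n = 2, 5 and 5). Over all 1519 tested junctions the medians were −0.01, −0.07 and −0.04 in these comparisons.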

How the data were processed

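Host gene, position, exon number and a count of back-splice reads in each of 12 liver libraries were read from the deposited table of circRNAs. The authors' count columns hold whole numbers, and the 12 columns of normalised values (SRPBM) were not used. Reads were handled with cutadapt 1.9, FastQC and TopHat2 2.0.10 on Rnor_6.0, per the submitters' processing notes; the back-splice caller is not given in the sources used here.

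Circles of 2 to 4 exons were taken from 12405 entries (10894 named by gene symbol, 1511 by Ensembl identifier). Entries of 1 junction (same chromosome, end and strand) were summed, which joined 585 pairs; in 575 of these no library had reads in both entries. Identifiers were joined to symbols within the table (1449 of 1696). Single reads made up 35.0% of the values above 0 in symbol entries and 3.16% in identifier entries. Positions are counted from 1.

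Libraries held 18176 to 37229 back-splice reads. Junctions were filtered with filterByExpr (minimum count 5, minimum total 15) and tested in edgeR 4.0.16 (R 4.3.3; TMM, robust quasi-likelihood F-test, 1 fit of the 3 groups, Benjamini-Hochberg adjustment over 1519 junctions, threshold 0.05), checked on simulated counts. DESeq2 1.42.0 and limma 3.58.1 (voom) were alternatives, as were other normalisations, filters, entry sets, left-out libraries and the replicate number as a block. Single values per library were compared by exact permutation (scipy 1.17.1). RPM are reads per 1e6 back-splice reads of a library; folds against a group at 0 use 3 reads over the group, and bounds and floors cover counting error only.

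The circles and the gene lists were chosen with earlier results of these data known. Named are the 15 most abundant circles, the 8 with the smallest p in each comparison, the most abundant tested circle and that with the smallest p between sleeve gastrectomy and sham of each of 11 lists, and the 5 hosts with most circles. Some results that this rule would name are not reported here.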

Additional observations from a re-analysis of the deposited data

Results flagged for a closer look

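In 8 of 106 groups of 5 libraries examined (7.55%, where chance gives about 5%), 1 library lay far from the others of its group. Sham 1 detected 3334 circles of 2 to 4 exons, above the other sham libraries, and it was also the deepest of them with 30213 back-splice reads. Sleeve gastrectomy 3 was high for Dennd1b circRNA5889, with 107.9 RPM from 2 reads while the other 4 had 0, and for Arg1 circRNA1962, with 323.6 RPM from 6 reads. Sleeve gastrectomy 2 was high for Crot circRNA7290, with 540.5 RPM from 11 reads, and for Psd3 circRNA597, with 1572 RPM. Sham 5 was high for Ugt2b15 circRNA2934, with 139.5 RPM from 3 reads while the other 4 had 0, and for Chd2 circRNA2034, with 836.9 RPM from 18 reads. Sham 3 was high for Slco1b2 circRNA1582, with 1145 RPM from 22 reads.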

How the results depend on the processing

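The count of circles past the threshold was 0 in each comparison under the other normalisations, filters, tests, entry sets and group sets. With libraries left out in turn it stayed 0 for sleeve gastrectomy against sham, ran from 0 to 4 for relapse against sleeve gastrectomy (1 without relapse 1, 4 without relapse 2) and from 0 to 3 for relapse against sham (1 without relapse 1, 3 without relapse 2). The share of back-splice reads differed by −0.00394 percentage points between relapse and sham, and changed sign with identifier entries alone (1.84), with exonic reads as denominator (0.0335) and over left-out libraries (−0.284 to 0.175). Between relapse and sleeve gastrectomy it became −0.232 without the 10 most abundant junctions. Detected circles changed sign for relapse against sleeve gastrectomy at 2 reads or more (86.4) and over left-out libraries (−653.6 to 530.4), and for relapse against sham after thinning (−116.9) and over left-out libraries (−526.6 to 657.4). Over left-out libraries, chosen after seeing the data, the 2-exon share for sleeve gastrectomy against sham ran from −0.115 to 0.688 and the 3-exon share for relapse against sham from −0.418 to 0.0880. None of these differences passed a test, so their signs are not established. Reads per junction against single-exon circles reversed as the share of single reads (−3.61 percentage points), and Nrdc circRNA2889 as deposited was −6.88. The cause was not tested.

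Replicate numbers in the labels did not pair the libraries: deviations of same-numbered libraries correlated by −0.0961 to 0.0237, and no library was closest to its own number. With the replicate block, 0 circles passed in each comparison (24, 27 and 34 at an unadjusted p under 0.05 in sleeve gastrectomy against sham, relapse against sleeve gastrectomy and relapse against sham). Detected circles then differed by 296 and −163.5 for relapse against sleeve gastrectomy and against sham.

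Depth limits single circles: 986 of 11823 passed the filter, and 3706 had 1 read in all.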

Other observations

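Among the 78 circles at 1000 RPM or more, the 2 that varied most between libraries came from genes of detoxification with near-identical copies and are named after their values were seen. CircRNA2837 of Cyp2c13, a cytochrome P450 gene, had a mean of 1790.5 RPM and a coefficient of variation of 89.2% over 12 libraries, where counting error would give 15.3%. CircRNA2463 of Sult2a2, a sulfotransferase gene of steroids, had a mean of 1595 RPM and a coefficient of variation of 78.4%, where counting error would give 16.9%.

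Of the 46 circles listed as starting at exon 1, the 3 with most reads were circRNA1474 of AABR07060133 (chromosome 4, 58469326 to 58485447, 180 reads), circRNA1662 of LOC103690017 (chromosome 3, 57375101 to 57389901, 180 reads) and circRNA1235 of Ppp1r13b, which encodes a partner of p53 (chromosome 6, 136430193 to 136436620, 168 reads). They are named after their values were seen. Exon 1 of the listed transcript need not be the first exon of the gene in liver.

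The share of junctions read in a single library was 59.2% for single-exon circles, 54.6%, 52.8% and 57.3% for 2, 3 and 4 exons, 61.9% for 5 and 82.1% for 10 or more, as a description of these libraries.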
